A study of Mus musculus with 16 samples.

Results

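Pluripotency in mouse embryonic stem cells (mESCs) is held by a small set of transcription factors and signals, and 38 of these genes were examined here for DNA methylation out of 22367 protein-coding genes of the annotation. They were listed by name for their known roles, with no methylation value in the rule, but earlier results of these data were known by then. They fall into the core factors Pou5f1, Nanog and Sox2, 11 naive-state factors, 7 other factors expressed in stem cells, 4 primed-state factors, 4 genes of Nodal signalling, 3 of the path from the LIF receptor to Stat3, 2 Myc factors and 4 genes of FGF signalling. For each gene the promoter was all CpGs within 2 kb of an annotated transcription start site (TSS) and the gene body was the remainder of the gene. A level is the mean over at least 2 CpGs of the share of methylated reads, with both strands summed and at least 10 reads on each CpG.

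Naive pluripotency is the state of the inner cell mass, which LIF acting through Stat3 keeps in culture, with Esrrb, Zfp42 (also called Rex1), Klf factors, Tbx3, Tfcp2l1 and Prdm14 as its factors. The primed state of the later epiblast expresses Fgf5, Otx2, Pou3f1 and Zic2, and FGF and Nodal signals move cells towards it. When cells leave the naive state, de novo methyltransferases methylate much of the genome, and the promoters of several pluripotency genes that are then silenced become methylated, whereas promoters inside dense CpG islands mostly stay free of methylation.

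The data are reduced representation bisulfite sequencing (RRBS), which reads methylation in CpG-rich fragments, of 16 libraries in 8 groups with 2 replicates each. All groups came from E14 mESCs of the 129/Ola strain grown in serum with LIF. YP-mESC and OP-mESC are the young and the old passage of the line. OP-S33Y #1 and OP-S33Y #2 are each 1 clone that overexpresses β-catenin with the S33Y mutation, which spares the protein from degradation, carried on to old passage. mESC shCtrl and mESC shβcat #1 are young passage cells with a control hairpin or with 1 hairpin against β-catenin. EB shCtrl and EB shβcat #1 are embryoid bodies, the aggregates formed without LIF, of the same 2 lines at day 8 of differentiation. The libraries covered 413282 to 1152971 CpGs. The read counts summed over the CpGs of a library were between 18919219 and 40519010, and a read counts once for each CpG it covers. The OP-mESC replicate 2 library covered the fewest CpGs, and the YP-mESC replicate 2 library held 0 CpGs on chromosome 13, where Il6st lies. The paper reports that mESCs with hairpins against β-catenin failed to differentiate properly and that their embryoid bodies disaggregated early. A difference between the 2 embryoid body groups cannot be told apart from that failure. Methylation gives no check of the cell type or of the β-catenin level. A level from bulk cells cannot tell a few fully methylated cells from many partly methylated ones. The paper calls the 2 RRBS replicates of the young, old and S33Y lines biological replicates. Nothing in the labels says that the replicates of any group were separate cultures. The p-values therefore measure the spread between these samples, which may be technical in part.

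Promoter methylation of the set was low in every mESC group. Of the 30 members with at least 2 promoter CpGs common to all 16 libraries, 18 were below 5% and 25 below 10% in each of the 12 mESC libraries. In the embryoid bodies 16 of the 30 were below 10% in all 4 libraries. Sox2, Klf5, Utf1, Lin28a and Lifr, which encodes the LIF receptor, were below 5% in each of the 16 libraries. The 1 promoter of the 30 above 20% in an mESC library was that of Stat3, the transcription factor that LIF activates. Its window joins 14 annotated TSSs over 23971 bases, against 4001 bases for Klf2 with 1 TSS, so it reaches well into the gene. The windows of Esrrb (16243 bases) and Tbx3 (12854) were also wide. Over its 31 common CpGs the Stat3 window sat between 49.1% and 59.5% in all 16 libraries. No value could be given for Nanog, which had 0 CpGs covered in its promoter and in its gene body although the reference holds 65 CpGs in the promoter window. The Il6st promoter had 0 CpGs covered, and the Dppa5a promoter had 1. Gene bodies gave a value for 23 members and none for 15, Pou5f1, Sox2, Nanog, Klf2 and Klf4 among them.

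**Figure D1:**
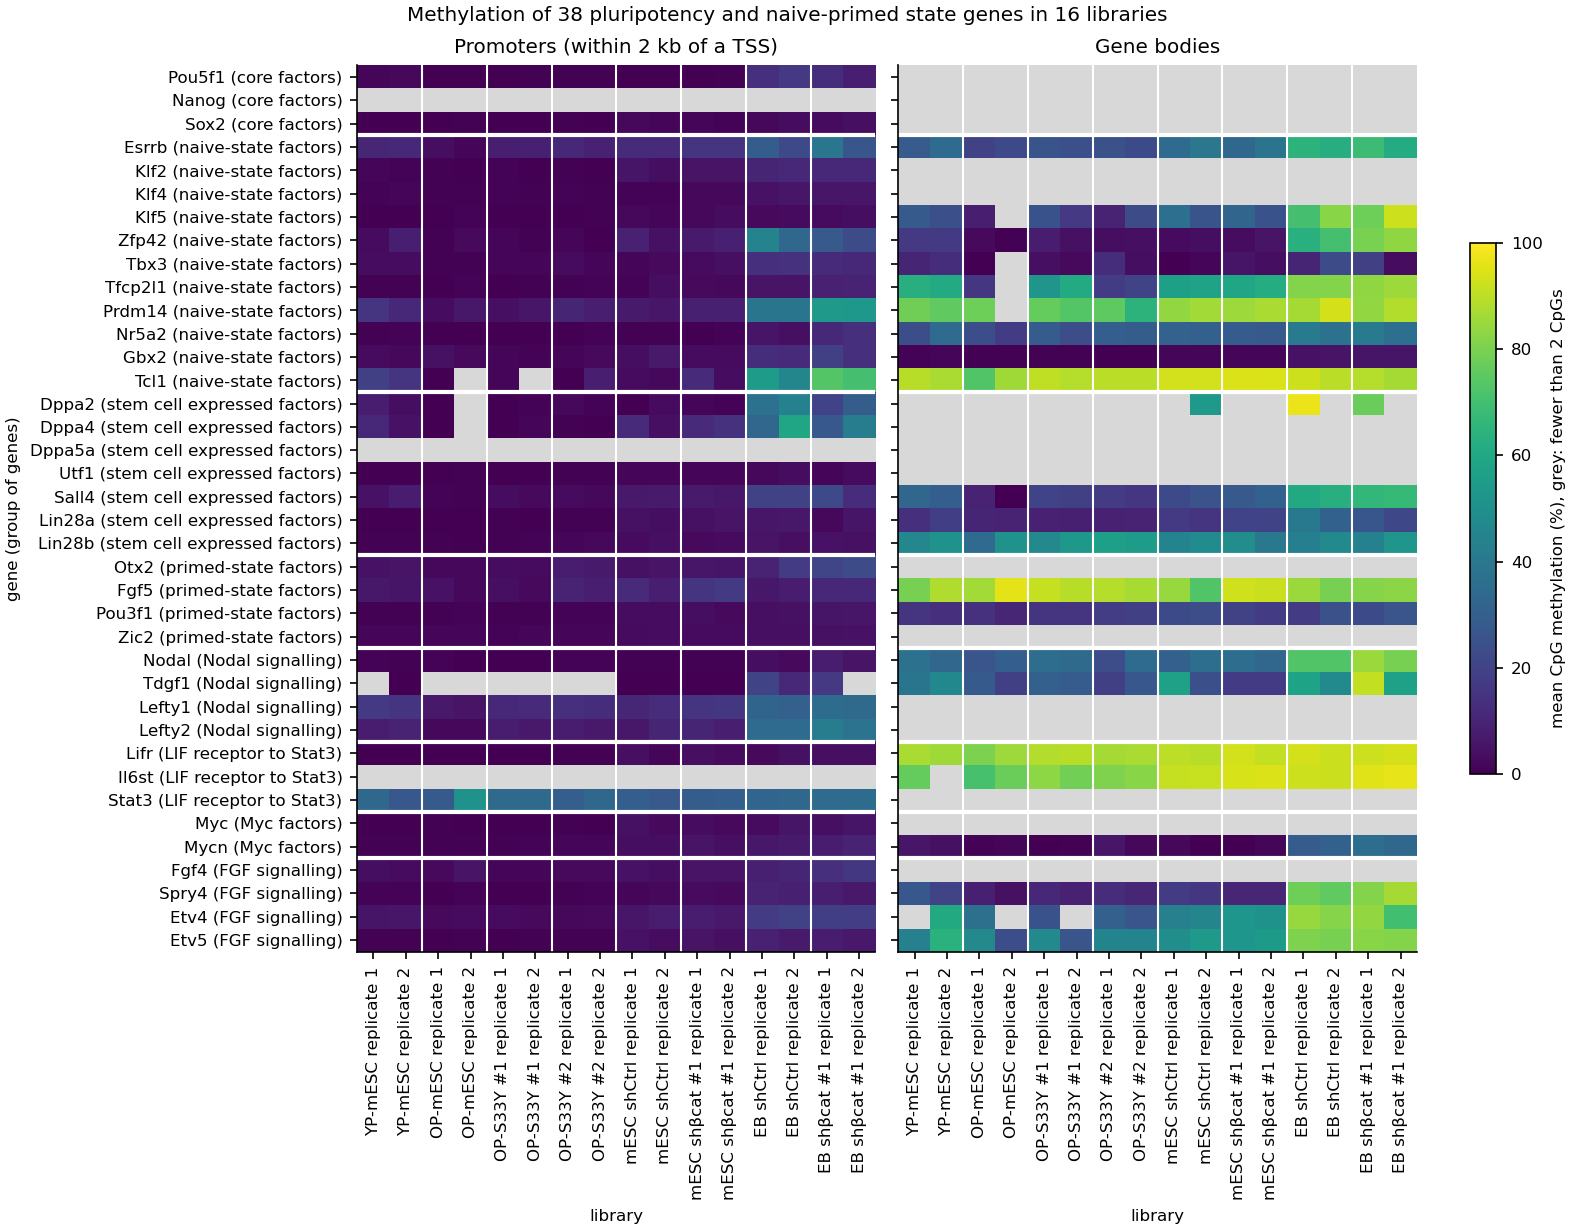
Mean CpG methylation in percent of each of the 38 genes (rows, ordered by group of genes) in each of the 16 libraries (columns), for promoters on the left and gene bodies on the right, over the CpGs each library covered, with grey where fewer than 2 CpGs were covered. Most promoters are dark in the 12 mESC libraries, with that of Stat3 lighter, and rows such as Prdm14, Tcl1, Lefty2 and Zfp42 are lighter in the 4 embryoid body libraries.

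Differentiation was the contrast with the most calls among the members. In EB shCtrl against mESC shCtrl, 13 of 35 promoters tested were higher by more than 10 points with an adjusted p under 0.05, which is 37.1% of them, and 0 were lower. Over all 15097 promoters tested, 11.2% were called higher. The median difference was 5.34 points over the members and 1.23 points over all promoters, and 34 of the 35 members had a positive difference. In the β-catenin silenced line, EB shβcat #1 against mESC shβcat #1, 12 of 34 members were higher (35.3%) and 0 lower, against 12.3% higher of all 15111 promoters, with medians of 6.03 and 0.974 points. The 2 comparisons share no library.

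The promoter with the most called CpGs was that of Prdm14, a repressor of FGF signalling and of the de novo methyltransferases in naive cells. Over 33 CpGs its level was 6.09% and 6.66% in mESC shCtrl and 40.5% and 38.9% in EB shCtrl, a difference of 33.3 ± 0.813 points (SE; adjusted p = 3.24e-06). In the silenced line it went from 8.66% and 8.15% to 55.6% and 53.2%, a difference of 46.0 ± 1.24 points. Of the 41 CpGs tested in Prdm14, 28 were higher on their own in EB shCtrl, 27 of them in the promoter, from 1249 bases before the TSS to 2043 bases after it. A stretch of 9 CpGs in the first 1 kb of the gene was at 3.24% and 2.88% in mESC shCtrl, 1.94% and 4.74% in mESC shβcat #1, 35.0% and 30.4% in EB shCtrl and 50.2% and 37.9% in EB shβcat #1. The sequence is shown as an example of CpGs close together within this promoter, and in this and the later sequences, all from the mm9 genome, capitals mark the CpGs read in all 8 libraries with a hairpin.
Prdm14, chr1:13116392-13116539, intron, minus strand: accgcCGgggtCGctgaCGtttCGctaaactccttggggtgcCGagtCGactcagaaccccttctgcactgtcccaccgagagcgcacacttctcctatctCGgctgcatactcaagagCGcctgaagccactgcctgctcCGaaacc

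Zfp42, a zinc finger protein whose expression marks naive cells, changed at both its promoter and its coding sequence. The promoter level over 5 CpGs was 13.7% and 10.4% in mESC shCtrl and 34.8% and 31.7% in EB shCtrl (difference 21.2 ± 2.27 points, adjusted p = 0.000395). In the silenced line, over 7 CpGs, it was 10.3% and 11.02% in mESCs and 32.7% and 23.4% in embryoid bodies (17.4 ± 4.66 points, adjusted p = 0.00106). On the 5 CpGs covered in all 8 libraries with a hairpin the differences were 21.2 points in shCtrl and 24.04 points in the silenced line. The embryoid bodies lay above the mESCs in every library of both lines.

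Tcl1, Dppa2 and Dppa4 are silent in most adult tissues, and their promoter differences rest on 3 or 4 CpGs. Tcl1, a coactivator of the kinase Akt, stood over 3 CpGs at 4% and 0% in mESC shCtrl and at 52.1% and 45.9% in EB shCtrl (47.0 ± 3.71 points, adjusted p = 9.49e-05). In the silenced line, over 4 CpGs, it stood at 12.1% and 3.22% in mESCs and at 83.1% and 70.4% in embryoid bodies (69.1 ± 7.77 points). Dppa2 and Dppa4, neighbours on chromosome 16 whose proteins act as a pair, rose by 38.7 ± 3.64 and 40.4 ± 8.16 points in EB shCtrl and by 23.6 ± 4.75 and 20.7 ± 6.76 points in EB shβcat #1. Without the EB shβcat #1 replicate 2 library the Dppa4 difference in the silenced line was 16.1 points and did not pass (adjusted p = 0.101). The stretches are printed because 3 of the 3 or 4 CpGs behind each promoter value lie in them, in capitals.
Tcl1, chr12:106461263-106461320, upstream, minus strand: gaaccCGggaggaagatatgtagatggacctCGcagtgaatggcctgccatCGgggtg
Dppa2, chr16:48310194-48310306, upstream, plus strand: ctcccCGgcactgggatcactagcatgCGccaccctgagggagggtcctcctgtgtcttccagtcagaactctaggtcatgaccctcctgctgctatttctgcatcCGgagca
Dppa4, chr16:48284764-48284811, intron, plus strand: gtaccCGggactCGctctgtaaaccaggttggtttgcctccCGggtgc
Counted along the gene from the nearest TSS, the 3 Tcl1 CpGs lay at -321 to -367 bases and the 3 Dppa2 CpGs at -290 to -391 bases. The Dppa4 stretch lies in an intron, 888 to 924 bases after the nearest TSS. Its 3 CpGs averaged 24.2% and 9.68% in mESC shCtrl and 15.7% and 28.4% in mESC shβcat #1. They averaged 50.6% and 64.8% in EB shCtrl and 35.0% and 45.2% in EB shβcat #1. On their own, 4 of 4 Dppa4 and 3 of 3 Dppa2 promoter CpGs were called in shCtrl. In the silenced line 1 of 4 and 1 of 3 were. At the Tcl1 stretch the EB shβcat #1 libraries read 79.6% and 67.1%, above both EB shCtrl libraries, and at the Dppa2 stretch they read 20.1% and 29.6%, below both EB shCtrl libraries at 37.6% and 43.8%.

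The core factors differed from one another. Pou5f1, which encodes Oct4, was at 0.173% and 0% over 17 promoter CpGs in mESC shCtrl and at 14.1% and 16.7% in EB shCtrl (15.3 ± 1.29 points, adjusted p = 3.64e-05). In the silenced line it went from 0.0709% and 0.528% to 12.7% and 8.58% (10.3 ± 2.05 points, adjusted p = 0.000302), and without the EB shβcat #1 replicate 1 library the difference was 8.28 points, under the 10-point limit. Sox2, which neural cells also use, read 2.03% and 1.59% over 93 CpGs in mESC shCtrl and 2.04% and 2.82% in EB shCtrl, groups that touch (0.625 ± 0.445 points, adjusted p = 0.621). Nanog, as above, was not covered.

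Of the 11 naive-state factors, 5 promoters were higher in EB shCtrl (Tcl1, Prdm14, Zfp42, Esrrb and Tbx3) and 6 in EB shβcat #1 (Tcl1, Prdm14, Zfp42, Esrrb, Nr5a2 and Gbx2). Esrrb, the orphan nuclear receptor that works with Oct4 and Sox2, rose by 14.4 ± 0.396 points over 58 CpGs in shCtrl and by 18.9 ± 1.53 points over 59 CpGs in the silenced line. Tbx3, a T-box factor of naive cells, was 10.7 points higher in EB shCtrl (adjusted p = 1.05e-05) and 8.01 points higher in EB shβcat #1, under the limit. Without the EB shCtrl replicate 1 library the first was 9.87 points and also under it. Nr5a2, which can stand in for Oct4 in reprogramming, gave 4.31 points in shCtrl and 12.1 points in the silenced line, and Gbx2, a homeobox factor downstream of Stat3, gave 8.40 and 11.8 points. That a call was made in 1 line and not in the other does not show that the lines differed, and the test of that difference is given below. The promoters of Klf2, Klf4 and Klf5, Krüppel-like factors of naive cells, were not called in either line, with differences of 5.58, 5.34 and 0.266 points in shCtrl.

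Among the stem cell expressed factors, Sall4, which binds next to Oct4, was 10.49 points higher in EB shCtrl and 6.47 points higher in EB shβcat #1. The 2 values rest on 110 and 100 CpGs, and on the 100 CpGs covered in both lines they were 5.123 and 6.473 points. The Sall4 call in shCtrl was lost over the 45 promoter CpGs common to all 16 libraries (2.82 points), with at least 20 reads (3.68) and within 1 kb (7.38). Utf1 and Lin28a, a chromatin-bound factor and a blocker of let-7 maturation, differed by 1.51 and 2.15 points in shCtrl and were not called.

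The Nodal pathway was the group with the largest median, 18.9 points over its 4 promoters in shCtrl, and 3 of the 4 were called. Lefty1 and Lefty2 encode secreted inhibitors of Nodal. They are tandem copies of near-identical sequence, so reads of one may have been placed on the other. Lefty2 went from 4.61% and 7.35% to 32.3% and 33.5% (26.91 ± 1.502 points, adjusted p = 2.59e-05) and Lefty1 from 10.9% and 11.9% to 29.3% and 31.7% (19.1 ± 1.25 points, adjusted p = 0.000617). With β-catenin silenced they rose by 31.5 ± 1.71 and 20.7 ± 0.630 points. The Lefty2 stretch with 6 CpGs, 303 to 381 bases after the nearest TSS, is shown as an example.
Lefty2, chr1:182824887-182824976, exon, plus strand: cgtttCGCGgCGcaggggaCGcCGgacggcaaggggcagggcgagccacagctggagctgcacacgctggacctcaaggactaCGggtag
Its 6 CpGs averaged 1.70% and 6.79% in mESC shCtrl, 4.42% and 5.06% in mESC shβcat #1, 31.4% and 36.6% in EB shCtrl and 42.5% and 40.1% in EB shβcat #1. Tdgf1, the coreceptor Cripto, was at 0% in both mESC shCtrl libraries over 4 CpGs and at 26.3% and 10.9% in EB shCtrl, but its call was lost without either mESC shCtrl library or without EB shCtrl replicate 1 (adjusted p = 0.0673, 0.0899 and 0.0624). Its promoter had a value in 8 of the 16 libraries. Nodal itself, the ligand, differed by 2.57 points in shCtrl and was not called.

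Of the primed-state factors 0 of 4 promoters were called in EB shCtrl and 1 of 4 in EB shβcat #1, which was Otx2, a homeobox factor that drives cells out of the naive state, at 6.80% and 7.03% in mESC shβcat #1 and 24.3% and 23.4% in EB shβcat #1 (16.9 ± 0.470 points, adjusted p = 7.49e-05). In shCtrl the Otx2 difference was 9.15 ± 1.19 points, with an adjusted p of 0.00326 but under 10 points. Fgf5, the growth factor of the primed epiblast, was the only member promoter that was lower in EB shCtrl, at 12.4% and 9.25% in mESC shCtrl and 6.88% and 8.87% in EB shCtrl, which did not pass (-2.98 ± 1.88 points, adjusted p = 0.383). In the shβcat #1 line its difference was -5.06 ± 0.256 points (adjusted p = 0.0302), under the 10-point limit. Pou3f1 and Zic2 differed by 1.03 and 1.11 points in shCtrl. Of the FGF signalling genes only Etv4, an ETS factor induced by FGF, was called at its promoter (10.9 points in EB shCtrl), and without EB shCtrl replicate 2 it was at 9.33 points, under the limit. Neither promoter of the Myc factors nor that of Lifr or Stat3 was called in either line.

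**Figure D2:**
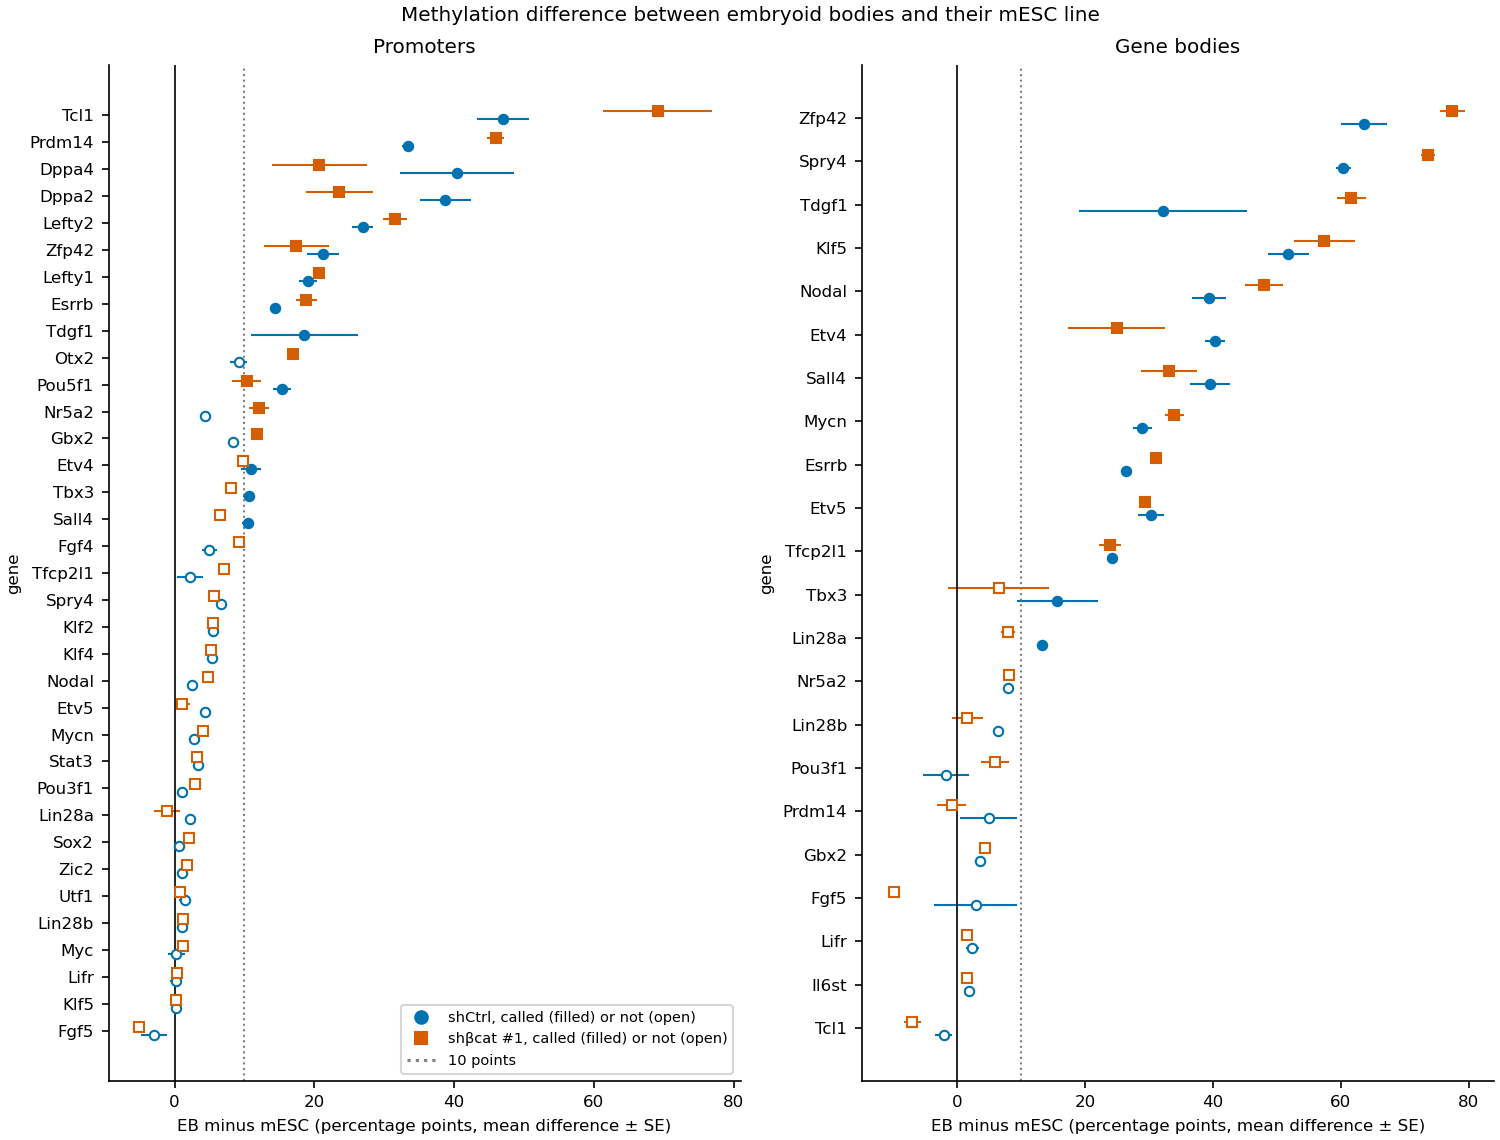
Difference in methylation in percentage points between embryoid bodies and mESCs (x axis, mean difference ± SE over 2 replicates each) for each member with a value (y axis), for promoters on the left and gene bodies on the right, with circles for shCtrl, squares for shβcat #1, filled symbols for called members and a dotted line at 10 points. Tcl1 and Prdm14 lead the promoters, and Zfp42 and Spry4 lead the gene bodies at over 60 points in both lines.

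Gene bodies changed more than promoters. In EB shCtrl 13 of 22 bodies tested were higher (59.1%) and 0 lower, against 28.4% of all 10453 bodies called higher, with a median of 19.9 points over the members and 4.601 points over all. In EB shβcat #1 11 of 22 were higher (50% of them) and 0 lower, against 21.3% of all 10338, with medians of 16.1 and -0.230 points. The 11 are all among the 13, and Tbx3 and Lin28a were called in shCtrl alone.

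The Zfp42 body was nearly unmethylated in these mESCs and mostly methylated in the embryoid bodies. Over 14 CpGs, all in coding sequence, it read 3.02% and 3.67% in mESC shCtrl, 3.26% and 5.13% in mESC shβcat #1, 63.5% and 70.6% in EB shCtrl and 79.9% and 83.4% in EB shβcat #1. The differences were 63.7 ± 3.56 points (adjusted p = 1.11e-09) and 77.5 ± 1.99 points (adjusted p = 8.16e-11). The sequence holds 10 of these CpGs, over 11 kb from the TSS.
Zfp42, chr8:44381145-44381297, coding exon, minus strand: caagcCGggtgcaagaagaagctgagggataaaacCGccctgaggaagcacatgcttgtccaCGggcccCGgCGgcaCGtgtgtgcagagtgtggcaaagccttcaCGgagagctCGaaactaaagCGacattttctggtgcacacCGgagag
Spry4, an inhibitor of FGF signalling that FGF itself induces, was covered at 24 CpGs of its body, 21 in coding sequence and 3 in an intron, and all 24 were called on their own. It stood at 17.3% and 15.9% in mESC shCtrl and 78.1% and 76.0% in EB shCtrl (60.4 ± 1.23 points, adjusted p = 1.11e-09). With β-catenin silenced the values over 21 CpGs were 12.02% and 11.4% in mESCs and 84.3% and 86.4% in embryoid bodies (73.6 ± 1.11 points).

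All 3 tested bodies of FGF signalling genes rose in both lines. The ETS factors Etv4 and Etv5 gained 40.3 ± 1.60 and 30.3 ± 2.04 points in shCtrl and 24.95 ± 7.58 and 29.5 ± 0.801 points in the silenced line. On the 3 Etv4 CpGs covered in both lines the differences were 29.1 and 24.95 points. Klf5 gained 51.8 ± 3.24 and 57.5 ± 4.74 points in its body while its promoter read 2.31% and 2.35% in EB shCtrl. A stretch of 4 Klf5 CpGs in an intron was at 12.9% and 12.6% in mESC shCtrl, 20.1% and 13.8% in mESC shβcat #1, 67.5% and 76.2% in EB shCtrl and 78.0% and 88.3% in EB shβcat #1, and is printed as an example of a gain in a body beside a promoter that was not called.
Klf5, chr14:99709718-99709840, intron, plus strand: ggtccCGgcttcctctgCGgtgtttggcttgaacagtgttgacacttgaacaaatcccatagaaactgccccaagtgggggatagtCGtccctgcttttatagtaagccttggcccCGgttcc
Nodal was the same kind of case, with an uncalled promoter and a body over 4 coding CpGs at 30.6% and 36.0% in mESC shCtrl and 72.7% and 72.8% in EB shCtrl (39.5 ± 2.68 points, adjusted p = 1.22e-05). In the shβcat #1 line it gained 48.0 ± 2.92 points.

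The remaining called bodies were Sall4 (39.6 points in shCtrl and 33.2 in the silenced line), Mycn (29.0 and 34.0), Esrrb over 68 and 57 CpGs (26.4 and 31.2) and Tfcp2l1, a partner of Esrrb in naive cells (24.2 and 23.9). Tdgf1 rested on 2 CpGs, with 32.3 ± 13.2 points in shCtrl and 61.7 ± 2.31 in the silenced line, and without the EB shCtrl replicate 1 library its shCtrl difference of 24.1 points did not pass (adjusted p = 0.0776). Tbx3 also rested on 2 CpGs (15.7 ± 6.29 points in shCtrl) and did not pass without the EB shCtrl replicate 2 library (9.49 points, adjusted p = 0.0523). Lin28a gained 13.4 ± 0.339 points in shCtrl. Of the bodies that were not called, Lifr read 89.9% and 91.0% in mESC shCtrl and 93.7% and 92.1% in EB shCtrl, and Gbx2 read 1.60% and 1.79% and then 5.198% and 5.32%. Nr5a2 lay between, at 28.8% and 28.3% in mESC shCtrl and 35.9% and 37.1% in EB shCtrl over 71 CpGs, with 9 of its CpGs called on their own.

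Single CpGs gave the same picture at a finer scale, with CpGs on one fragment sharing reads. In EB shCtrl against mESC shCtrl, 281 of 2365 member CpGs were higher by more than 25 points (11.9%) and 0 lower, against 6.31% higher of all 858530 CpGs. They lay in 30 of the 37 members with a tested CpG, with 121 in coding exons, 122 in introns and 28 upstream of the gene. Sox2, Utf1, Lin28b, Lifr, Il6st, Fgf5 and Pou3f1 had none. With β-catenin silenced 269 of 2382 were higher (11.3%), against 6.23% of all, and 7 were lower, against 0.344% of all. All 7 lay in Fgf5.

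Within promoters the difference was smallest next to the TSS and largest in the outermost bin, without a steady rise between. Member CpGs less than 250 bases from a TSS averaged 3.52% in mESC shCtrl and 6.402% in EB shCtrl over 713 CpGs, and those from 1000 to 2000 bases averaged 9.66% and 20.3% over 336 CpGs. The differences were 2.89, 6.34, 4.82 and 10.6 points from the innermost bin to the outermost, with bounds at 250, 500 and 1000 bases. Over the promoters of all protein-coding genes the same bins went from 5.24% to 6.86% and from 29.5% to 36.8%. Members with fewer CpGs in the promoter sequence had the larger differences. The 13 called promoters held between 1.34 (Dppa4) and 3.82 (Prdm14) CpGs per 100 bases with a median of 2.14, and the 22 that were tested and not called held between 1.60 (Stat3) and 8.70 (Pou3f1) with a median of 3.84. Across the 35 genes Spearman's rho of density and difference was -0.562 and Pearson's r was -0.498, while across all 15097 genes they were -0.0438 and -0.139. In the silenced line they were -0.527 and -0.374 over 34 members and 0.122 and -0.00851 over all 15111 genes. The coefficients of each line run across genes in the same 4 libraries, genes are not independent replicates, and RRBS reads fewer CpGs where they are sparse.

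**Figure D3:**
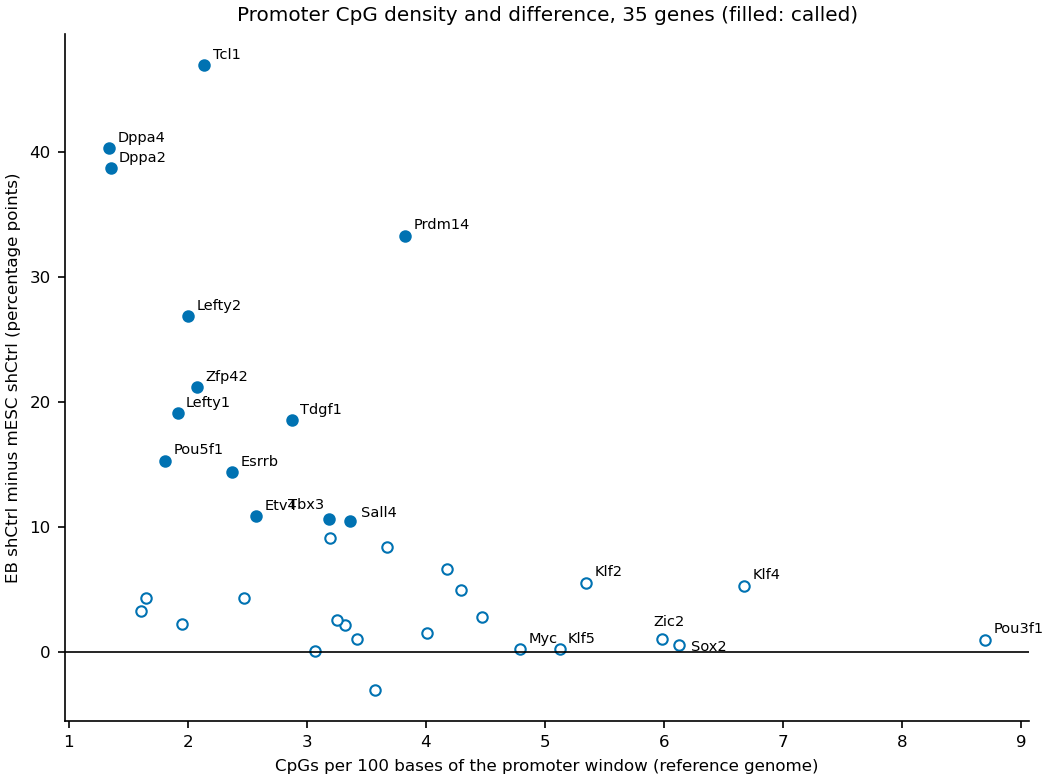
CpGs per 100 bases of the promoter window in the reference genome (x axis) against the difference in promoter methylation between EB shCtrl and mESC shCtrl in percentage points (y axis) for the 35 members with a value, with filled points for called promoters. The 13 called promoters lie at or below 3.82 CpGs per 100 bases, and Myc, Klf5, Klf2, Zic2, Sox2, Klf4 and Pou3f1, at 4.79 or more, lie between 0.246 and 5.58 points.

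Whether loss of β-catenin changed the set in embryoid bodies was addressed by EB shβcat #1 against EB shCtrl. None of the 34 member promoters was called, nor was any of all 14974 (0%), so a lack of calls says little about the members. By the limma-moderated test 14 members had an unadjusted p under 0.05, as did 1709 of all 14974 promoters. Fisher's exact test on summed reads, which ignores the spread between replicates, called 4 members. Here and below, the share of all features called by this test is not given, so its counts of members have no background beside them. The 3 largest differences were those of Tcl1 (24.4 ± 6.95 points, adjusted p = 0.118), Dppa2 (-15.9 ± 5.65, adjusted p = 0.273) and Dppa4 (-15.6 ± 7.63, adjusted p = 0.306). These 3 were picked for their size, rest on 3 or 4 CpGs each and did not pass. Pou5f1, Zfp42, Otx2 and Fgf5 differed by -2.55, -1.95, 8.62 and 5.07 points.

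One gene body passed. The Zfp42 body was 14.7 ± 3.96 points higher in EB shβcat #1 than in EB shCtrl (adjusted p = 0.00782), with the 4 libraries as given above and no overlap between the groups. It was 1 of 22 bodies tested (4.55%), against 0.542% called higher of all 10140. The count of member bodies changed without the EB shβcat #1 replicate 1 library, which also changes which CpGs are tested. Nodal and Tdgf1 followed with 9.52 ± 2.64 and 9.18 ± 8.46 points, neither of which passed (adjusted p = 0.213 and 0.434). Of 2299 single CpGs of the members 3 were higher (0.13%), 1 each in Lefty2, Prdm14 and Tbx3, against 0.0607% of all CpGs. Without the EB shβcat #1 replicate 1 library 0 of them were called, and without replicate 2 only 1 was.

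The difference between the lines in what differentiation did was tested as an interaction on the logit scale. No promoter of the 34 members passed by the limma-moderated test, against 0.00674% of all 14831, so this too says little about the members. By the same test 4 members had an unadjusted p under 0.05, as did 1214 of all 14831 promoters. The largest contrasts were Tcl1 at 20.5 points (adjusted p = 0.999), Dppa4 at -19.6 (adjusted p = 0.615) and Dppa2 at -15.1 (adjusted p = 0.992). Of 22 gene bodies 1 passed, Spry4, whose difference between embryoid bodies and mESCs was 11.8 points larger in the silenced line than in shCtrl (73.6 against 61.8 points over 21 CpGs, adjusted p = 0.0091). Of all 10002 bodies 0.47% passed in that direction and 1305 passed in the other, in which 0 of the 22 members did. Larger contrasts at Tdgf1 (29.4 points), Fgf5 (-17.0) and Zfp42 (13.8) did not pass (adjusted p = 0.0801, 0.11 and 0.155). The count of member bodies changed without EB shCtrl replicate 1, EB shCtrl replicate 2 or EB shβcat #1 replicate 1, which also changes which CpGs are tested.

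In mESCs that had not differentiated, silencing of β-catenin gave few calls over all genes, so a lack of calls says little about the members. None of 35 promoters and none of 22 bodies was called, against 0.0393% and 0.111% of all promoters and bodies. By the limma-moderated test 2 member promoters and 5 member bodies had an unadjusted p under 0.05. Over all genes 1053 of 15285 promoters and 2208 of 10795 bodies did. Fisher's exact test on summed reads called 0 promoters and 2 bodies of members. Pou5f1, Zfp42 and Otx2 promoters differed by 0.178, -0.224 and 0.497 points. The largest promoter difference was that of Fgf5 (6.31 ± 1.49 points, adjusted p = 0.1), followed by Tcl1 (4.28 ± 4.45) and Dppa4 (4.01 ± 7.35), and the largest body differences were Tdgf1 (-20.3 ± 10.4, adjusted p = 0.142), Fgf5 (13.6 ± 5.04, adjusted p = 0.0667) and Etv4 (6.20 ± 2.37, adjusted p = 0.503).

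Single CpGs showed where the Fgf5 difference lay. Of 2475 member CpGs 5 were higher (against 0.08% of all CpGs) and 1 lower (against 0.0271%), and 4 of the 5 were in the first part of the Fgf5 gene, at 694, 715, 728 and 2014 bases after the TSS. The stretch of 5 neighbouring CpGs there is printed because the silenced mESCs stood apart from every other library at it.
Fgf5, chr5:98683892-98683945, intron, plus strand: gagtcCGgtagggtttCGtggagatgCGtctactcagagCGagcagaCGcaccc
Its mean was 69.1% and 72.7% in mESC shβcat #1 and 33.2% and 28.7% in mESC shCtrl. It was 22.0% and 22.9% in EB shCtrl and 31.3% and 30.8% in EB shβcat #1. In the lines without a hairpin it was 23.3% and 29.8% in YP-mESC, 29.3% in the 1 OP-mESC library that covered it, 15.3% and 10% in the clone OP-S33Y #1, whereas OP-S33Y #2 read 39.1% and 34.4%. The lower of the silenced mESC libraries was thus above the highest of the other 13 libraries, 39.1%. The stretch was chosen from its calls, its 5 CpGs lie within 43 bases of each other and can share reads, and the promoter as a whole was not called. The other higher CpG lay in Mycn and the lower one in Klf2.

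**Figure D4:**
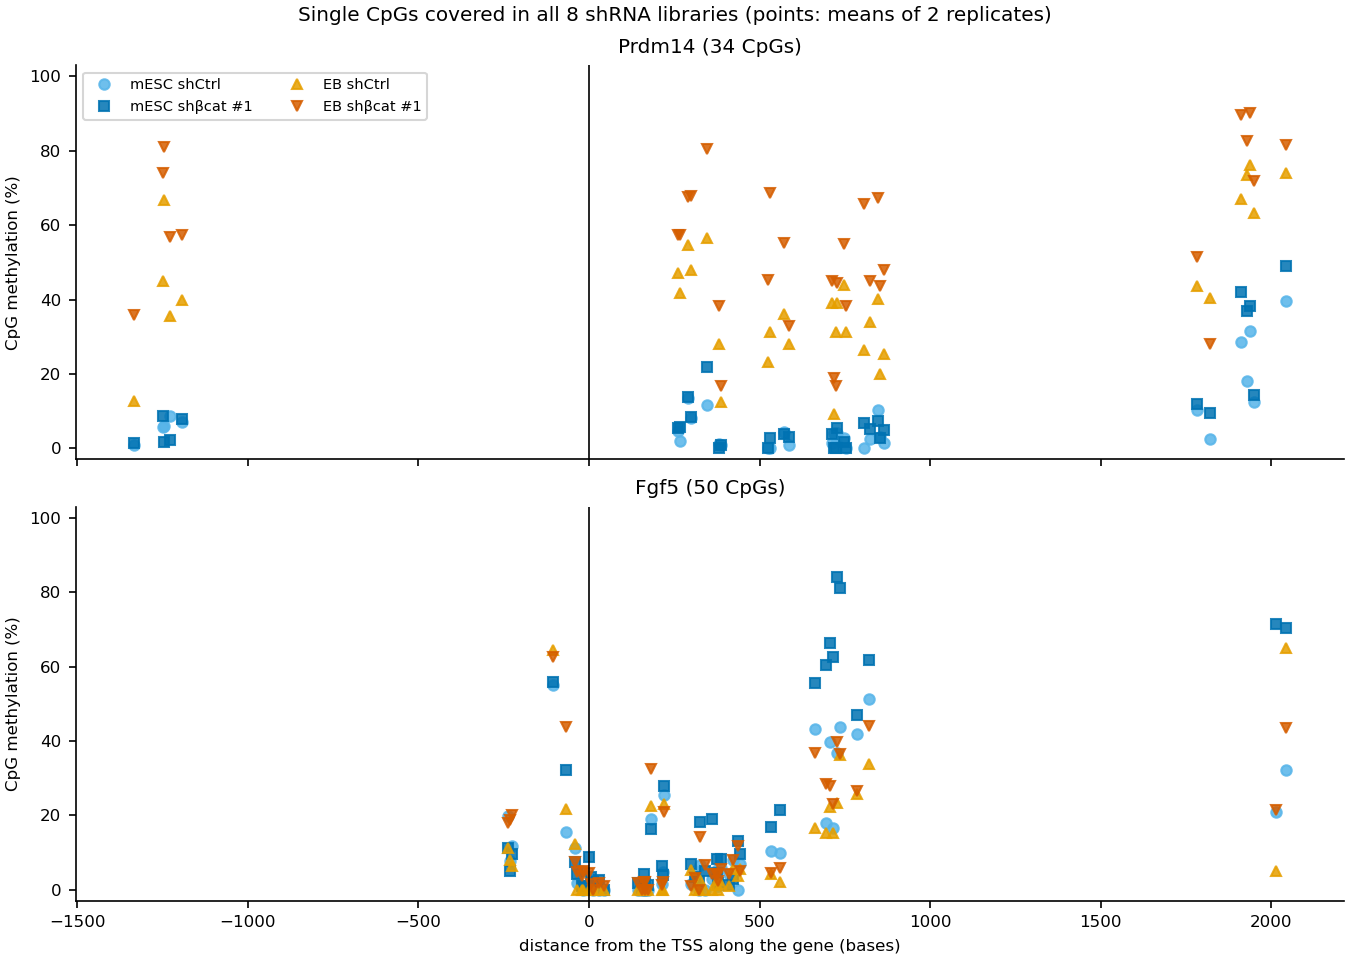
Methylation in percent (y axis) of single CpGs covered in all 8 libraries with a hairpin against their distance in bases from the TSS along the gene (x axis), for Prdm14 above and Fgf5 below, with each point the mean of 2 replicates and 1 symbol for each of the 4 groups. Embryoid bodies lie above mESCs over the whole Prdm14 window, and between 694 and 736 bases after the Fgf5 TSS the mESC shβcat #1 squares lie above the other 3 groups.

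Prolonged culture was addressed by OP-mESC against YP-mESC, in a background of broad loss: 27.9% of all 7221 gene bodies were called lower and the median over all bodies was -7.17 points. Of 16 member bodies 4 were lower (25% of them) and 0 higher, with a median of -6.68 points. Etv5 fell from 43.0% and 46.5% to 25.1% and 23.9% (-20.2 ± 1.86 points, adjusted p = 0.000102). Spry4 fell from 30.3% and 22.2% to 10.1% and 4.41% (-19.0 ± 4.99 points, adjusted p = 1.29e-06) and Zfp42 from 16.1% and 15.8% to 1.92% and 0.603% (-14.7 ± 0.674 points, adjusted p = 8.34e-07). Tdgf1, on 2 CpGs, fell by 19.2 ± 6.13 points (adjusted p = 0.0196) and lost its call without either YP-mESC library or without OP-mESC replicate 2 (adjusted p = 0.0721, 0.108 and 0.207). Leaving out OP-mESC replicate 2, which covered the fewest CpGs, raised the count of member bodies, but it also changes which CpGs and bodies are tested. The Fgf5 body, on 2 CpGs, read 71.7% and 81.8% in YP-mESC and 88.2% and 95.8% in OP-mESC and did not pass (adjusted p = 0.0812).

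At promoters 0 of 31 members were called in OP-mESC, against 3.68% of all 12342 promoters. By the limma-moderated test 14 members had an unadjusted p under 0.05, as did 3063 of all 12342 promoters. Fisher's exact test on summed reads called 0 members, and 22 of the 31 differences were negative. The largest were Lefty1 (-9.84 ± 1.47 points, adjusted p = 0.0134), Prdm14 (-8.95 ± 1.23, adjusted p = 0.00823) and Zfp42 (-8.92 ± 3.14, adjusted p = 0.125), the first 2 with an adjusted p under 0.05 but less than 10 points. Pou5f1, Otx2 and Fgf5 differed by -1.12, -4.26 and -1.14 points. Of 1075 single CpGs of the members 12 were lower and 0 higher, against 2.4% lower of all CpGs. They were 4 in Etv4 and 2 each in Etv5, Sall4, Spry4 and Tbx3. The largest was a CpG in a coding exon of Sall4 at 67.9% in YP-mESC and 9.68% in OP-mESC.

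Old passage clones with stabilised β-catenin were set against the same YP-mESC libraries, which these comparisons therefore share with the one above. In OP-S33Y #1 the bodies of Etv5 (-19.5 ± 2.14 points, adjusted p = 0.0246), Spry4 (-13.4 ± 3.33, adjusted p = 0.0158) and Zfp42 (-10.7 ± 1.57, adjusted p = 0.02) were lower, 3 of 20 against 1.4% of all 9070 bodies. Tdgf1 was the third largest at -13.0 ± 3.94 points and did not pass. All 3 calls rested on the full set of libraries: without YP-mESC replicate 1, YP-mESC replicate 2 or OP-S33Y #1 replicate 2, 0 were called. In OP-S33Y #2 there were 5 of 20, against 8.37% of all 9189, namely Etv5 (-21.4 ± 4.55 points, adjusted p = 0.00339), Tfcp2l1 (-15.1 ± 3.77, adjusted p = 0.009), Sall4 (-14.7 ± 1.85, adjusted p = 0.0337), Zfp42 (-12.6 ± 0.320, adjusted p = 0.000466) and Spry4 (-12.2 ± 3.31, adjusted p = 0.00131). Without YP-mESC replicate 2, OP-S33Y #2 replicate 1 or OP-S33Y #2 replicate 2 the count was 3, 2 and 3. Tdgf1 was at -19.9 ± 5.68 points and did not pass (adjusted p = 0.0599).

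No member promoter was called in either clone against YP-mESC, 0 of 33 and 0 of 34, against 0.0217% and 0.835% of all promoters. By the limma-moderated test 10 and 9 members had an unadjusted p under 0.05. Over all promoters 1579 of 13795 and 2264 of 13884 did. Fisher's exact test on summed reads called 0 and 1 members. The largest differences were Prdm14 (-7.74 points), Dppa4 (-7.46) and Dppa2 (-5.43) in the first clone, whereas the second had Tcl1 (-14.3), Dppa4 (-8.01) and Zfp42 (-4.45). Pou5f1, Otx2 and Fgf5 differed by -0.990, -2.28 and -2.63 points in the first clone and by -0.649, 2.33 and 2.44 points in the second. Single CpGs gave 5 lower of 1693 in OP-S33Y #1, against 0.145% of all CpGs, and 6 lower and 1 higher of 1752 in OP-S33Y #2, against 0.728% and 0.118%. Without OP-S33Y #1 replicate 2 the 5 were 2, and without either OP-S33Y #2 library the 7 were 4. The 1 higher CpG lay 24 bases before a TSS of Lin28b, the paralog of Lin28a, at 9.68% and 1.89% in YP-mESC and 51.8% and 43.8% in OP-S33Y #2. It read 17.8% in the 1 OP-mESC library that covered it, 16.7% and 11.8% in OP-S33Y #1 and at most 34.4% in any library with a hairpin.

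Each clone with stabilised β-catenin was also set against OP-mESC, whose libraries the 2 comparisons share. There was no control clone, so an effect of β-catenin cannot be told apart from one of cloning and selection. Genome-wide 33.1% of 7459 bodies were called for the first clone and 11.5% of 7516 for the second, but 0 of 17 member bodies in either, with medians of 2.53 and 2.36 points over the members and 8.22 and 4.83 over all bodies. By the limma-moderated test 4 and 5 member bodies had an unadjusted p under 0.05. Over all bodies 4367 of 7459 and 2812 of 7516 did. Fisher's exact test on summed reads called 0 and 1 member bodies. The largest were Tcl1 (8.202 and 10.04 points) and Fgf5 (-7.10 and -7.98) in both clones, Nodal in the first (7.09) and Lin28b in the second (9.86). Zfp42 was at 7.12% and 4.66% in the first clone and 3.04% and 4.20% in the second, against 1.92% and 0.603% in OP-mESC. The counts of 0 did not hold without OP-mESC replicate 2, which covered the fewest CpGs and so limits which CpGs are tested.

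Promoters gave 0 of 31 in both clones, against 4.24% of 12755 and 1.4% of 12787. By the limma-moderated test 9 and 11 members had an unadjusted p under 0.05. Over all promoters 3142 of 12755 and 2679 of 12787 did. Fisher's exact test called 0 members in each. In OP-S33Y #1 the largest were Lefty1 (5.43 points, adjusted p = 0.0369), Stat3 (4.56, adjusted p = 0.00817) and Lefty2 (4.52, adjusted p = 0.00903), and in OP-S33Y #2 Otx2 (7.37, adjusted p = 0.0286), Lefty1 (6.67, adjusted p = 0.0504) and Prdm14 (6.15, adjusted p = 0.0596), all under 10 points. Pou5f1, Zfp42 and Fgf5 differed by -0.157, 0.647 and 0.0156 points in the first and by 0.544, -0.919 and 2.68 points in the second. Of single CpGs 1 of 1082 was higher in OP-S33Y #1, in Stat3, against 2.36% of all, and it was not called without either OP-mESC library or without OP-S33Y #1 replicate 2. In OP-S33Y #2 0 of 1087 were called, against 0.711% of all, with 1 called without OP-mESC replicate 1 and 2 without OP-S33Y #2 replicate 2.

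Some bodies that fell in old passage cells were also low in the young passage lines with a hairpin, as the plot of gene bodies shows. Over the 10 CpGs of the Zfp42 body common to all 16 libraries, YP-mESC stood at 16.1% and 15.8%, mESC shCtrl at 3.30% and 3.34% and mESC shβcat #1 at 1.99% and 3.95%, so both young passage lines with a hairpin were in the range of the old passage lines, 0.603% to 7.12%. Spry4 over 15 CpGs stood at 30.3% and 22.2% in YP-mESC, 18.9% and 17.6% in mESC shCtrl, 12.8% and 12.3% in mESC shβcat #1 and 4.41% to 13.8% in the 6 old passage libraries. Etv5 over 6 CpGs differed from these, with 43.6% and 50.4% in YP-mESC, 42.6% to 51.2% in the 4 mESC libraries with a hairpin and 22.4% to 29.9% in the 6 old passage libraries. The lines with a hairpin were not compared with the others by a test.

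**Figure D5:**
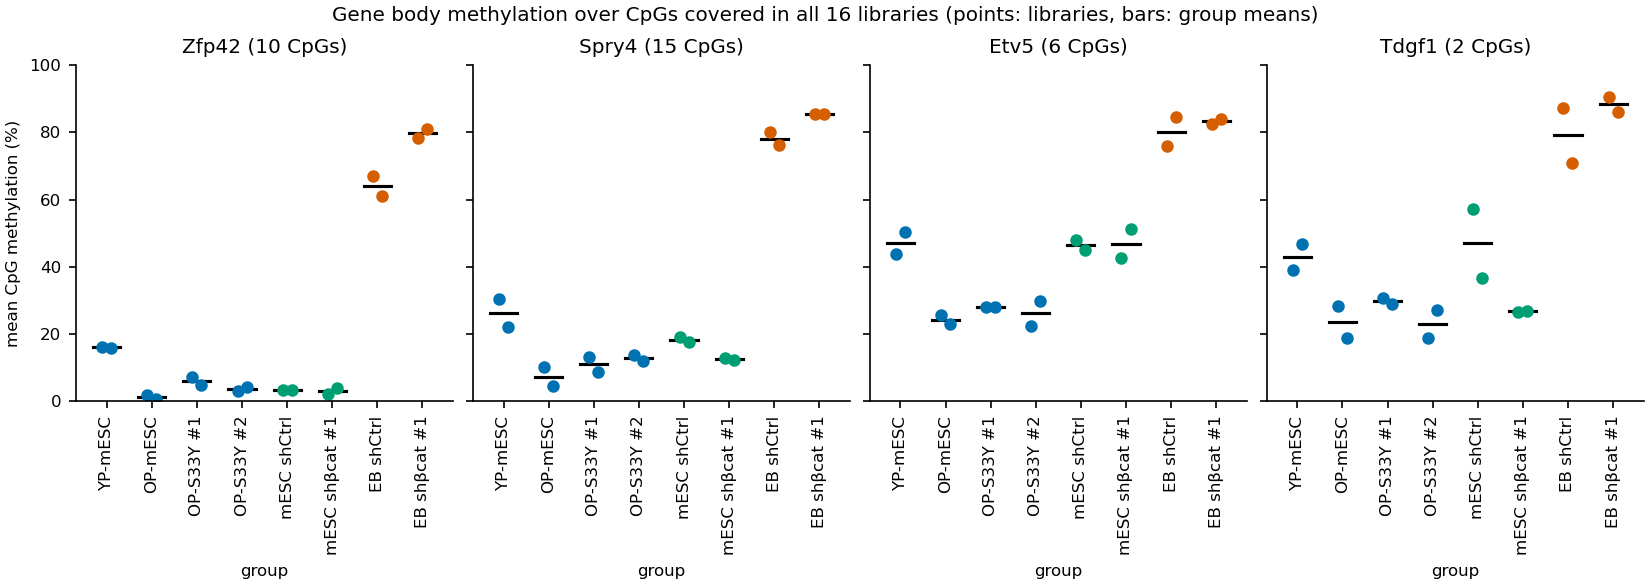
Mean methylation in percent (y axis) over the CpGs of the Zfp42, Spry4, Etv5 and Tdgf1 gene bodies that are covered in all 16 libraries, by group (x axis), with 1 point for each library, a bar at the group mean, and blue for lines without a hairpin, green for mESCs with a hairpin and orange for embryoid bodies. Zfp42 is highest among mESCs in YP-mESC at about 16% and reaches 61.2% or more in embryoid bodies, and Etv5 is lower in the 3 old passage groups than in YP-mESC and in the mESCs with a hairpin.

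Other genes of the same biology gave a frame for these values. Over all genes 11.2% of promoters and 28.4% of bodies were called higher in EB shCtrl against its mESCs. In EB shβcat #1 against its mESCs 12.3% of promoters and 21.3% of bodies were. Of 25 further naive and pluripotency genes, 22 had a promoter value in EB shCtrl against mESC shCtrl and 5 were higher, led by Zscan10 (40.7 points), Dppa3 (33.7) and Tdh (27.4), and in the silenced line 6 of 22 were higher, led by the same 3 genes (43.7, 35.5 and 30.3 points). Of 25 further genes of LIF, FGF and Nodal signalling 0 of 24 promoters were called in either line by the limma-moderated test, with Lif the largest at 7.86 points in shCtrl, but 11 of 17 bodies were higher in shCtrl and 7 of 17 in the silenced line. Of 20 germ layer markers, whose expression was not measured here, 5 of 18 promoters were higher in each line. Hand1 (17.2 points), Nkx2-5 (16.2) and Sox7 (14.4) led in shCtrl and Hand1 (25.3), Krt8 (19.5) and Pax6 (17.7) in the silenced line. In the comparisons between mESC lines and between embryoid bodies 0 promoters of these 3 lists were called, against 0% to 4.24% of all promoters. The largest differences there included Dnmt3l in OP-S33Y #2 against YP-mESC (-23.4 points) and Dppa3 in both clones, at 12.9 and 18.4 points against YP-mESC and 11.9 and 17.3 points against OP-mESC.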

How the data were processed

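RRBS libraries (NuGEN Ovation) of 16 samples in 8 groups of 2 were analysed. Per the submitters' processing notes, reads were handled with CASAVA 1.8.2 and Trim Galore 0.2.8 and aligned with Bismark 0.7.9 to mm9. How duplicates were treated is not given in the sources used here. In the deposited tables each cytosine of a CpG has its read count (coverage), which the authors limited to at least 10 reads, and the percent of those reads that were methylated, which the authors called with Bismark. No column of another sample was used.

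Methylated and total reads of both strands were summed for each CpG. All 1320646 CpGs carry CG in NCBIM37 (mm9), and genes were taken from GENCODE vM1. A promoter was within 2 kb of any TSS of the gene and a gene body was the rest of the gene. For each comparison, windows were kept where 2 or more CpGs reached 10 reads in each of the 4 libraries. A quasi-binomial logistic model was fitted to the reads of each window of every protein-coding gene, and the dispersion was moderated with limma 3.58.1 (R 4.3.3; Python 3.11.15, NumPy 2.4.6, SciPy 1.17.1). The p-values were adjusted by Benjamini-Hochberg over all windows of that kind. Called means an adjusted p under 0.05 and over 10 points (single CpGs, a binomial test with shared overdispersion, over 25 points). For the interaction an adjusted p under 0.05 on the logit scale sufficed. Differences are of means of CpG percentages, ± SE. PCR reads are not independent molecules. The models were tested on simulated data.

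The 38 genes and the further lists were chosen with earlier results of these data known. Named are all called members, the 3 largest promoter and gene body differences of each comparison, Pou5f1, Nanog, Zfp42, Otx2 and Fgf5, members without a value and the 3 largest promoter differences of the further lists. Some values of the further lists are not reported here. Other members were named after their values were seen, as were the printed stretches. Alternatives covered the read and CpG minimums, a coverage cap, window, common CpGs, weighting, dispersion, minimum difference, Fisher's exact test, a replicate block and each replicate left out.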

Additional observations from a re-analysis of the deposited data

Results flagged for a closer look

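The gene body of Spry4, an inhibitor of FGF signalling, differed between the lines in what differentiation did. Over 21 CpGs the embryoid bodies were 61.8 points above the mESCs in shCtrl and 73.6 points above them in shβcat #1, which is 11.79 points more in the silenced line. The test was the interaction term on the logit scale (adjusted p = 0.0091, limma-moderated test). The levels were lower in mESC shβcat #1 (12.02% and 11.4%) than in mESC shCtrl (17.3% and 15.9% over 24 CpGs) and higher in EB shβcat #1 (84.3% and 86.4%) than in EB shCtrl (79.7% and 78.8% over the same 21 CpGs), and neither of those separate comparisons was called.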

How the results depend on the processing

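Of 353 alternative values of 29 counts of calls, 291 stayed within 1.5 times the reported count and 62 moved. Of 925 alternative values of 63 named calls, 830 kept their direction and call and 95 lost the call, and 0 reversed. With over 25 points 35 named calls were lost, and 35 calls held under every other alternative. Replicate numbers did not mark pairs (correlations of deviations from -0.0303 to 0.0362), so the replicate block only removes a degree of freedom. With a replicate block 17 named calls were lost, the promoter calls in EB shCtrl against mESC shCtrl went from 13 to 0, those of bodies in OP-S33Y #1 against YP-mESC from 3 to 0, and single CpGs in OP-S33Y #1 against OP-mESC from 1 to 2.

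Promoter counts moved as follows. OP-mESC against YP-mESC went from 0 to 1 with at least 20 reads, 6 with no minimum difference and 2 weighted by reads. OP-S33Y #2 against YP-mESC went from 0 to 1 with one shared dispersion, 3 with no minimum and 1 by Fisher's exact test. The clones against OP-mESC went from 0 to 5 and 3 with no minimum, and the first to 1 weighted by reads. EB shβcat #1 against EB shCtrl went from 0 to 1 with at least 20 reads, within 1 kb, over common CpGs or with one shared dispersion, and to 4 by Fisher's exact test. With no minimum and over 25 points, EB shCtrl against mESC shCtrl had 23 and 5 in place of 13, and EB shβcat #1 against mESC shβcat #1 had 26 and 3 in place of 12.

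Gene body counts moved from 4 to 7 with no minimum and 0 over 25 points in OP-mESC against YP-mESC. Over 25 points the clones against YP-mESC had 0 in place of 3 and 5, and EB shβcat #1 against EB shCtrl had 0 in place of 1. Against OP-mESC, OP-S33Y #1 went from 0 to 4 with no minimum, and OP-S33Y #2 from 0 to 2 with no minimum and to 1 with at least 20 reads or Fisher's exact test. mESC shβcat #1 went from 0 to 1 with at least 20 reads, over common CpGs or with one shared dispersion, and to 2 by Fisher's exact test. EB shβcat #1 against mESC shβcat #1 went from 11 to 7 with at least 5 CpGs and 17 with no minimum. With at least 20 reads single CpG calls fell from 6 to 1 in silenced mESCs, from 281 to 177 in EB shCtrl and from 276 to 183 in EB shβcat #1 against its mESCs.

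Leaving out each replicate in turn gave 3 to 9 body calls in OP-mESC against YP-mESC, 0 to 2 and 2 to 6 in the clones against YP-mESC, 0 to 1 in each clone against OP-mESC, 1 to 2 in EB shβcat #1 against EB shCtrl and 1 to 2 in the interaction. Single CpG calls ranged from 2 to 5 and 4 to 7 in the clones against YP-mESC, 0 to 1 and 0 to 2 in the clones against OP-mESC and 0 to 3 in EB shβcat #1 against EB shCtrl. The cause of these moves was not tested beyond what each alternative removes. Leaving out a library also changes which CpGs are tested. These are counts of members alone, given without the share of all features called. Coverage limits the set most at Nanog, Il6st and Dppa5a.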
